A study of Mus musculus with 2 samples.

Results

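The 8 genes that encode the alpha-crystallins (Cryaa, Cryab) and beta-crystallins (Cryba1, Cryba2, Cryba4, Crybb1, Crybb2, Crybb3) of the mouse were followed through mRNA sequencing of lenses at postnatal day 60. They were chosen by name, and all 8 were found among the 21673 genes of the deposited table. The series holds 2 libraries from the strain C57BL/6, 1 per genotype. The library called Msx2 CKO came from Le-Cre+/- Msx2fl/fl mice, in which the Le-Cre transgene drives Cre recombinase in the lens and in other tissues derived from the surface ectoderm of the eye, and the library called Msx2 WT came from Msx2fl/fl mice. Both genotypes therefore carried the floxed alleles, and the presence of Cre differed along with the deletion of Msx2. The sources used here do not say how many animals went into a library, so every difference below describes 2 libraries and has not been set against variation between animals.

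Crystallins are the soluble proteins that fill lens fibre cells and give the lens its refractive power. The alpha-crystallins belong to the small heat shock proteins and act as chaperones that hold partly unfolded proteins in solution. The beta-crystallins form a superfamily with the gamma-crystallins, are built from paired Greek-key domains, assemble into oligomers, and are divided into acidic (A) and basic (B) chains. Fibre cells lose their nuclei as they mature, so crystallin messages are made in the outer, still differentiating fibres. In the promoters of many crystallin genes, Maf transcription factors bind the Maf recognition element (MARE), together with Pax6 and Sox proteins.

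The upstream sequences of 4 of the genes are shown, because they belong to the most abundant gene (Cryaa), to the genes with the largest and the smallest difference between the libraries (Cryba1 and Cryba2), and to the one without a MARE half-site (Crybb2). Each is the 250 bases before the RefSeq transcription start on GRCm38.p6, written 5′ to 3′ on the strand of the gene. Capitals mark TGCTGA, the half-site of the MARE, TAATTG, a homeodomain site of the kind that Msx proteins bind, and TATAAA, the TATA box, each searched on both strands.
Cryaa, chr17:31677681-31677930, plus strand: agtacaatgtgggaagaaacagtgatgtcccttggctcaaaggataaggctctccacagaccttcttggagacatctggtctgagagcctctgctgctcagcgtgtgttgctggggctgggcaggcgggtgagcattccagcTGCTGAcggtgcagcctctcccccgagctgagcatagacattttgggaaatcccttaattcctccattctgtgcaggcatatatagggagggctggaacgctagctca
Cryba1, chr11:77725294-77725543, minus strand: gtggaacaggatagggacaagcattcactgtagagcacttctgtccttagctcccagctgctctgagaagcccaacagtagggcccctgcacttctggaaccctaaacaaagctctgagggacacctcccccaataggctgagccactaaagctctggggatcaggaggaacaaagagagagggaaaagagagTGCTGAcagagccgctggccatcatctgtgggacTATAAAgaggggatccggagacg
Cryba2, chr1:74893144-74893393, minus strand: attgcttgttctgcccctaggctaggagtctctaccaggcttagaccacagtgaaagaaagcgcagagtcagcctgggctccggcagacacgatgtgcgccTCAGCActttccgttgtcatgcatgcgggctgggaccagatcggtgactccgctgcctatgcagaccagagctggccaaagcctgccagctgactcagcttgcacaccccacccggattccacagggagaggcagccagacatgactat
Crybb2, chr5:113070118-113070367, minus strand: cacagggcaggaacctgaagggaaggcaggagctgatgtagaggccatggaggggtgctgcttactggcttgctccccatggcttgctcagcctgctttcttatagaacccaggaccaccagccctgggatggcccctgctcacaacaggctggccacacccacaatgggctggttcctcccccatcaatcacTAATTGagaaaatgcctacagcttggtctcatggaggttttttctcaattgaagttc

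Upstream windows were matched for 7 of the 8 genes, Cryab being the other. TGCTGA was present in 6 of the 7, against 16.1% of the 32851 RefSeq windows of the same length. Cryba4 held 3 copies, with first bases at -182, -135 and -77 from the start, and Cryaa, Cryba1, Cryba2, Crybb1 and Crybb3 held 1 copy each. The copies of Cryba2 and Crybb3 lay on the opposite strand. TATAAA was found in the windows of Cryba1 and Crybb1, 2 of 7 against 12.4% of all windows, and TAATTG in that of Crybb2 alone, 1 of 7 against 7.17%. None of the matches overlapped another. The start used for Crybb2 is the upstream of 2 annotated protein-coding starts, which lie 1351 bases apart, and the window of the other was not searched. Other genes also have several annotated coding starts, among them Cryba4 (3 starts over 1356 bases), Crybb3 (7 over 931), Cryaa (3 over 141) and Crybb1 (3 over 59). For these, too, 1 window per gene was searched. The starts of Cryaa and of Crybb1 lie closer together than the 250 bases of a window, so windows of their separate starts overlap. Matches describe these exact letters in these windows, and binding was not measured. Variant forms were not searched, such as the tatata near the end of the Cryaa window, so a window without TATAAA may still hold a TATA-like stretch.

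**Figure D1:**
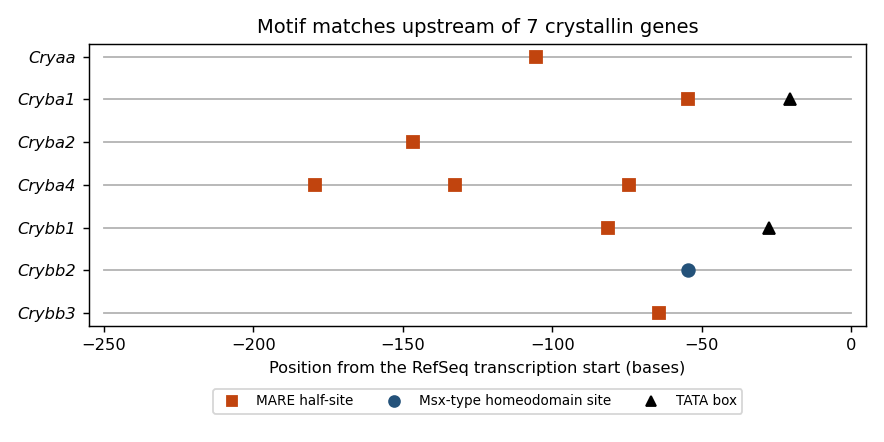
Positions of motif matches in the 250 bases upstream of 7 crystallin genes, with bases from the RefSeq start on the horizontal axis and 1 gene per line. The MARE half-site is marked in 6 of the 7 windows, with 3 copies in Cryba4, and Crybb2 carries the single homeodomain site.

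The libraries held 17165504 reads assigned to genes in Msx2 CKO and 20784737 in Msx2 WT. Whether such a read stands for a single read or a read pair was not settled, and the counting intervals treat each as 1 independent count. Levels are given as FPKM (fragments per kilobase of gene length, on a library size implied by the authors' scaling). The targeted gene Msx2 had 3 reads in Msx2 CKO and 311 in Msx2 WT. Lens identity was marked by the fibre genes, since 14 of 15 fibre markers were listed and all 14 were measured, summing to 20215 and 45428 FPKM. Genes of neighbouring tissues also differed: 22 of 22 measured photoreceptor markers were higher in Msx2 CKO by 2-fold or more, with sums of 1013 and 29.6 FPKM over 23 listed, and so were 13 of 15 measured inner retina and glia markers (sums 592 and 206 FPKM over 18 listed, with Vsx1 at 0 in Msx2 WT) and 8 of 10 measured leukocyte markers (sums 53.2 and 12.6 FPKM over 16 listed). Of the measured leukocyte markers 1 was lower by 2-fold, H2-Eb1, at 0.470 FPKM in Msx2 CKO (13 reads) and 2.27 in Msx2 WT (41 reads). The X-linked Xist, expressed in females, had 16251 reads in Msx2 CKO and 35 in Msx2 WT. The Y-linked Eif2s3y, Ddx3y, Kdm5d and Uty had 0, 1, 0 and 0 reads against 819, 729, 308 and 271. Genotype, the sex and identity of the animals, and these differences in make-up cannot be told apart with 1 library each, and their part in the crystallin results was not tested. In whole lenses, fewer cells of a type and less RNA per cell cannot be told apart either.

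All 8 alpha- and beta-crystallin genes were lower in Msx2 CKO than in Msx2 WT on the deposited scaling, and 7 of them, all but Cryba2, by 2-fold or more. Of all 10757 genes with a mean of 1 FPKM or more, 2.93% were lower by that rule and 5.83% were higher. The count depended on the scaling: 7 of 8 passed under median of ratios (3.02% of all genes), 5 under read totals without crystallins, none under read totals alone and none against lens fibre markers. Median of ratios is close to a repeat of the deposited scaling, from which it shifts log2 ratios by -0.014. Cryba2 turned to a log2 ratio of 0.054 under read totals alone, and 3 genes were above 0 against fibre markers. The median log2 ratio of the 8 (Msx2 CKO over Msx2 WT, 1 added to each FPKM) was -1.36, against -0.02 over all measured genes. Their plain FPKM ratios spanned a narrow range, from 1.79-fold lower for Cryba2 to 3.10-fold lower for Cryba1. Together the 8 genes took 32.9% of all reads in Msx2 CKO (exact binomial 95% interval 32.89 to 32.93) and 43.9% in Msx2 WT (43.85 to 43.89). These intervals, and those below, cover counting error only.

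**Figure D2:**
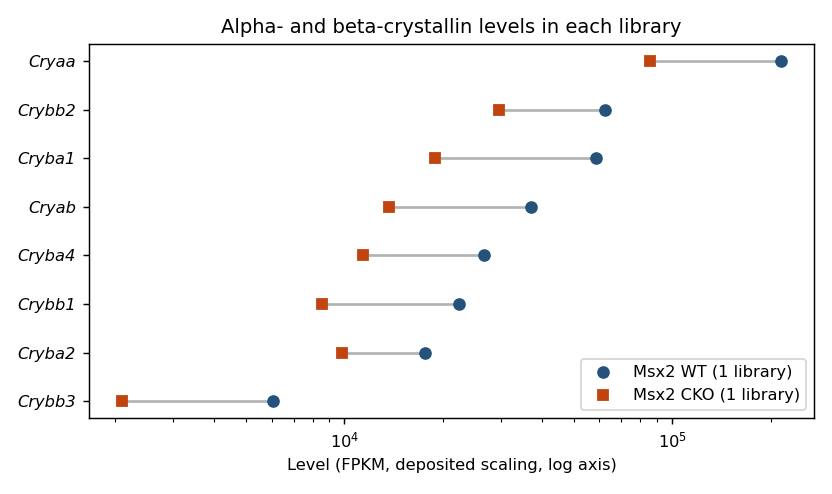
Level of each alpha- and beta-crystallin gene in FPKM on a log axis, with 1 circle for the Msx2 WT library and 1 square for the Msx2 CKO library. The square lies to the left of the circle for all 8 genes, and Cryaa is the highest in both libraries, at 85420 FPKM in Msx2 CKO and 215436 in Msx2 WT.

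Among the alpha-crystallins, Cryaa (ENSMUSG00000024041, chromosome 17, plus strand, 31677933 to 31681722), which is largely restricted to lens, was at 85420 FPKM in Msx2 CKO and 215436 FPKM in Msx2 WT. It was the most abundant message of either library, by FPKM and by reads, with 13.8% of all reads in Msx2 CKO and 18.8% in Msx2 WT. Its level was 2.52-fold lower (exact 95% counting interval 2.518 to 2.526).

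Cryab (ENSMUSG00000032060, chromosome 9, plus strand, 50752758 to 50756633) encodes alpha-B-crystallin, which heart, skeletal muscle and glia make as well as lens. It was at 13647 FPKM in Msx2 CKO and 36990 FPKM in Msx2 WT, 2.71-fold lower (2.70 to 2.72). Both alpha genes were thus lower by a similar factor, and the Cryaa to Cryab ratio of FPKM was 6.26 in Msx2 CKO and 5.82 in Msx2 WT, a change of 1.07-fold (1.070 to 1.079).

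Of the acidic beta-crystallins, Cryba1 (ENSMUSG00000000724, chromosome 11, minus strand, 77718615 to 77725283), whose message yields both the beta-A3 and the beta-A1 chain from different start codons, was at 18865 FPKM in Msx2 CKO and 58508 FPKM in Msx2 WT. It had the largest difference of the 8 genes, 3.10-fold lower (3.09 to 3.11). Cryba4 (ENSMUSG00000066975, chromosome 5, minus strand, 112246493 to 112252518) was at 11408 and 26615 FPKM in the same order, 2.33-fold lower (2.32 to 2.35).

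Cryba2 (ENSMUSG00000006546, chromosome 1, minus strand, 74889934 to 74893143) was at 9833 FPKM in Msx2 CKO and 17554 FPKM in Msx2 WT, 1.79-fold lower (1.78 to 1.79), and its log2 ratio of -0.84 missed the 2-fold rule. Its share of all reads was 1.60% in Msx2 CKO and 1.54% in Msx2 WT. It was the single gene of the 8 whose share of reads was not lower in Msx2 CKO.

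The basic beta-crystallins were led by Crybb2 (ENSMUSG00000042240, chromosome 5, minus strand, 113058258 to 113070117), the principal basic chain of the adult lens, at 29634 FPKM in Msx2 CKO and 62215 FPKM in Msx2 WT. It was 2.10-fold lower (2.095 to 2.104). Crybb1 (ENSMUSG00000029343, chromosome 5, plus strand, 112255815 to 112269585), which carries the longest terminal extensions of the family, was at 8537 and 22435 FPKM, 2.63-fold lower (2.61 to 2.64). Crybb3 (ENSMUSG00000029352, chromosome 5, minus strand, 113075839 to 113081584) was the lowest of the 8 in both libraries, at 2092 and 6071 FPKM, and 2.90-fold lower (2.88 to 2.92). The basic chain with the highest level thus showed the smallest difference of the 3, and the one with the lowest level the largest. The 3 acidic chains ran the other way on the deposited lengths. Among them Cryba1 had the highest level and the largest difference, and Cryba2 the lowest level and the smallest.

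In summed FPKM, the alpha-crystallins were 2.55-fold lower in Msx2 CKO, the 3 acidic beta-crystallins 2.56-fold lower and the 3 basic beta-crystallins 2.25-fold lower. The alpha to beta ratio of summed FPKM was 1.23 in Msx2 CKO and 1.31 in Msx2 WT, 0.944 of the Msx2 WT value (0.942 to 0.946). The acidic to basic beta ratio was 0.996 and 1.13. These ratios within a library do not depend on how the libraries were scaled, but they do depend on the gene lengths. The acidic to basic ratio was formed with the deposited lengths only, so whether acidic or basic messages were the more abundant was not settled. The classes differed from each other by less than the acidic or the basic beta members did among themselves.

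The make-up of the alpha- and beta-crystallin pool was similar in the 2 libraries, with 3 genes moving by more than 1 percentage point. Cryaa made up 47.6% of the summed FPKM of the 8 genes in Msx2 CKO and 48.3% in Msx2 WT. Cryba1 made up 10.5% and 13.1%, Crybb2 16.5% and 13.96%, and Cryba2 5.48% and 3.94%. The pool in Msx2 CKO thus held relatively more Crybb2 and Cryba2 message and less Cryba1. Cryab was at 7.61% and 8.30%, Cryba4 at 6.36% and 5.97%, Crybb1 at 4.76% and 5.03%, and Crybb3 at 1.17% and 1.36%.

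**Figure D3:**
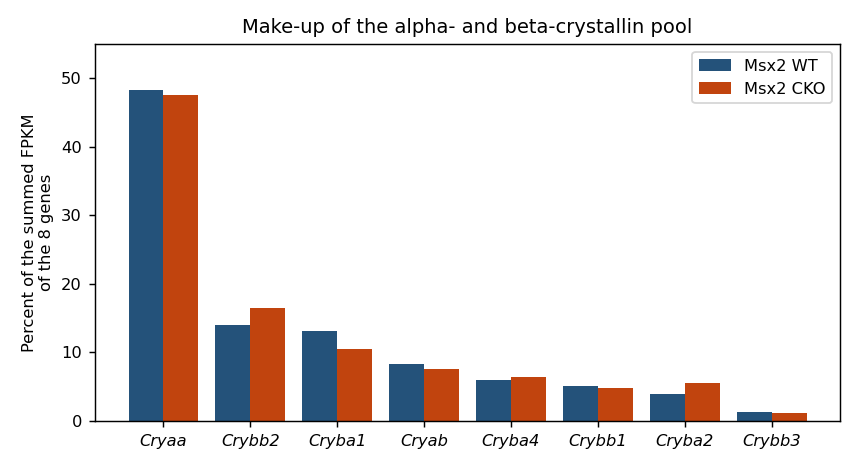
Percent of the summed FPKM of the 8 genes contributed by each gene, with paired bars for Msx2 WT and Msx2 CKO (1 library each). Cryaa contributes 48.3% and 47.6%, and the visible shifts are the lower bar of Cryba1 and the higher bars of Crybb2 and Cryba2 in Msx2 CKO.

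With the deposited gene lengths, the order of levels was Cryaa, Crybb2, Cryba1, Cryab, Cryba4, Crybb1, Cryba2, Crybb3 in Msx2 WT. In Msx2 CKO it was the same except that Cryba2 stood above Crybb1. With principal transcript lengths, described below, Cryba2 stood above Crybb1 in both libraries, and instead Cryba2 and Cryab exchanged places, with Cryba2 the higher in Msx2 CKO. Ratios of FPKM were formed for all 28 pairs of members within each library, and each ratio was compared between the libraries. The change in pair ratio lay between 1.03-fold and 1.74-fold, and for all 28 pairs its 95% counting interval excluded 1. The largest was that of Cryba1 over Cryba2, at 1.92 in Msx2 CKO and 3.33 in Msx2 WT. The smallest was that of Cryab over Crybb1, at 1.60 and 1.65. At 114041 reads or more per gene and library counting error is small, and whether such shifts exceed the spread between animals cannot be judged from 1 library per genotype.

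Levels between genes depend on the length by which reads were divided. The deposited gene lengths exceed that of the principal protein-coding transcript of GENCODE M21 by 2.62-fold for Crybb3 (2333 and 892 bases), 2.22-fold for Crybb2 (2012 and 906 bases) and 2.05-fold for Cryba1 (1594 and 778 bases). For Cryaa the lengths were 1186 and 1254 bases. Dividing by the principal transcript instead raised the share of Crybb2 in the pool to 27.1% in Msx2 CKO and 23.1% in Msx2 WT, and lowered that of Cryaa to 33.3% and 34.0%. The alpha to beta ratio then became 0.645 and 0.683, below 1 in both libraries, while its change between the libraries stayed at 0.945. The choice of length thus decides whether alpha or beta messages come out as the more abundant class. It also enlarged the largest shifts within the pool, from -2.61 to -4.11 percentage points (Msx2 CKO minus Msx2 WT) for Cryba1 and from 2.56 to 4.02 for Crybb2. The smaller shifts of Cryab, Cryba4 and Crybb1 shrank instead. The ratio of each gene between the libraries does not depend on its length.

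How far the crystallins were lower depended on the scaling. The authors' effective library was 1.36 times the read total in Msx2 CKO and 0.735 times in Msx2 WT, and relative to read totals this moves the log2 ratios of abundant genes such as these down by 0.89, and by less near 1 FPKM. Scaled to read totals alone, the median log2 ratio of the 8 genes was -0.47 and of all measured genes 0.69, and none of the 8 was lower by 2-fold (0.664% of all genes were). Cryba2 then changed direction, to a log2 ratio of 0.054, while the other 7 lay between -0.74 for Cryba1 and -0.18 for Crybb2. Scaled to read totals without the 16 crystallin genes, the median was -1.12, and 5 of the 8 (Cryaa, Cryab, Cryba1, Crybb1 and Crybb3) were lower by 2-fold, against 1.92% of all genes. The median of the 8 genes lay below that of all measured genes by 1.16 to 1.35 on the log2 scale in these 3 scalings. Against lens fibre markers it lay 1.07 below. A scaling multiplies each library by 1 constant, so this gap is fixed apart from the added 1 FPKM and the 1 FPKM bound.

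**Figure D4:**
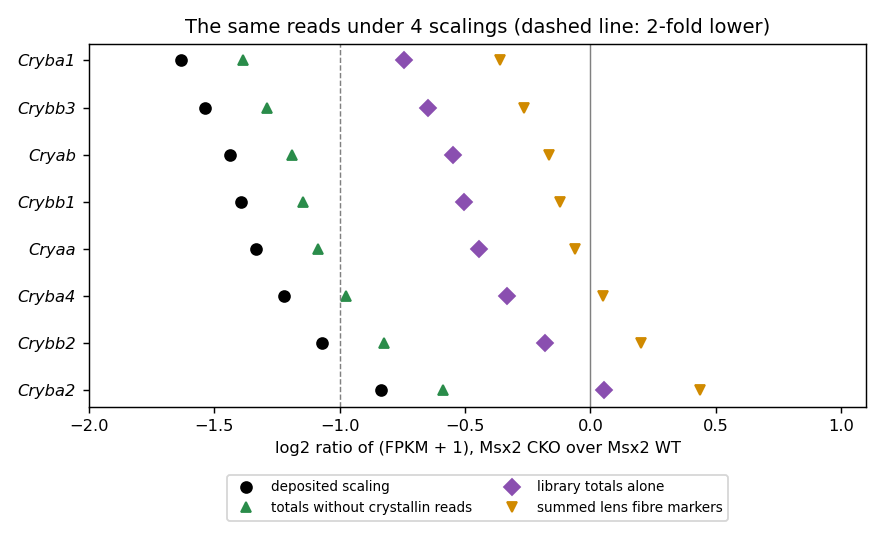
Log2 ratio of FPKM + 1 (Msx2 CKO over Msx2 WT) for each of the 8 genes under 4 scalings of the same reads, with a dashed line at 2-fold lower. The order of the genes is the same under each scaling, from Cryba1 at the low end to Cryba2 at the high end, and the whole set shifts from a median of -1.36 (deposited) to -0.092 (lens fibre markers).

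Among the most abundant genes, which are largely crystallins and lens fibre genes, a difference of this size was common. Of 27 genes with a mean of 1000 FPKM or more, a bound chosen after the data were seen, 70.4% were lower by 2-fold. These 27 include the 8 genes themselves. Of the 13 that are not crystallins 46.2% were lower by 2-fold (median log2 ratio -0.97). The 13 include the fibre markers Grifin, Bfsp1, Bfsp2, Lgsn and Fabp5, all lower by 2-fold, and Mip, at -0.97. Hspb1, also among the 13, was at -0.35. The 13 are thus not a background separate from the fibre markers that follow. Lens fibre markers, which include the beaded-filament genes Bfsp1 and Bfsp2 and the lens-specific water channel gene Mip, were lower by 2-fold in 10 of 14, with a median of -1.25. Of the 14 fibre markers 9 had log2 ratios inside the range of the 8 crystallins, 3 lay below it (Birc7, Clic5 and Lgsn) and 2 above it (Gja3 and Hopx). Scaled to the summed reads of these 14 markers, the median log2 ratio of the 8 crystallins was -0.092, and none was lower by 2-fold (0.33% of all genes were). Their log2 ratios then ran from -0.36 for Cryba1 to 0.44 for Cryba2, with Crybb2 at 0.20 and Cryba4 at 0.050 also above 0. Grifin, which encodes a galectin-related lens protein, was the largest single part of that sum, with 34.1% of its reads in Msx2 CKO and 29.1% in Msx2 WT. Measured lens epithelium markers were lower by 2-fold in 2 of 10 and higher in 1, with a median of -0.57.

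The gamma-crystallins, the other branch of the beta-gamma superfamily, differed more. The log2 ratios of the 6 genes Cryga to Crygf ran from -5.58 to -2.05, and all 6 lay below those of all 8 alpha- and beta-crystallins. The summed FPKM of the 8 genes was 3.62 times that of these 6 genes in Msx2 CKO and 1.71 times in Msx2 WT. Crygs, a gamma-crystallin of the adult lens, was at 19438 and 52186 FPKM, 2.68-fold lower (2.67 to 2.70), inside the range of the alpha- and beta-crystallins. Crygn was at 105 and 388 FPKM, 3.70-fold lower (3.51 to 3.90). Similar gamma genes can share reads, so their separate values are less certain.

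**Figure D5:**
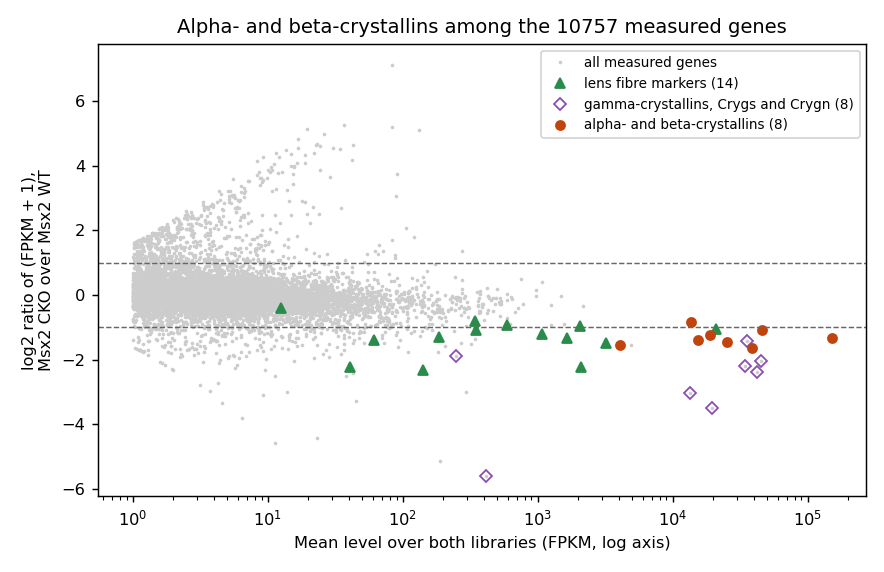
Log2 ratio of FPKM + 1 (Msx2 CKO over Msx2 WT) against mean FPKM on a log axis for the 10757 measured genes in grey, with dashed lines at 2-fold. The 8 alpha- and beta-crystallins sit at the abundant end between -1.63 and -0.84, with 9 of the 14 fibre markers in the same range of ratio and the gamma-crystallins Cryga to Crygf below them.

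The small heat shock relatives of the alpha-crystallins lay closer to the median of all genes. Of 9 listed genes 6 were measured, none was lower or higher by 2-fold, and their median log2 ratio was -0.23. Over all measured genes 2.93% were lower and 5.83% higher, so none of 6 is not far from those shares. Hspb1, which encodes the chaperone HSP27 (HSP25 in mouse), was at 1907 FPKM in Msx2 CKO and 2429 in Msx2 WT, 1.27-fold lower (1.26 to 1.29). Hspb2 lies head to head with Cryab, 404 bases from it in the table and on the opposite strand. It was at 40.6 and 51.9 FPKM, 1.28-fold lower (1.15 to 1.42). The Cryab to Hspb2 ratio of FPKM was 336 in Msx2 CKO and 713 in Msx2 WT, 2.12-fold apart (1.91 to 2.35). The neighbours thus differed in their ratio between the libraries, in a measure that does not depend on scaling. In GENCODE M21 the 2 genes overlap by 1030 bases, where strandless reads cannot be assigned to either.

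The beta genes on chromosome 5 form 2 close pairs, 788673 bases apart. Cryba4 and Crybb1 are divergently transcribed with 3297 bases between them, and were 2.33-fold and 2.63-fold lower. Crybb2 and Crybb3 lie in the same orientation 5722 bases apart, and were 2.10-fold and 2.90-fold lower. Crystallins and overlapping genes aside, 9 nearest genes flank the 8 crystallins within 50 kb, and 6 of them were measured. None of these 6 was past 2-fold, beside 2.93% lower and 5.83% higher over all measured genes. Their log2 ratios ran from -0.35 for Hspb2 to 0.13. The other 3, Miat, Fev and Adrbk2, had a mean below 1 FPKM. Miat, a long noncoding RNA, was at 0.576 FPKM in Msx2 CKO (125 reads) and 0.0916 in Msx2 WT (13 reads), 6.28-fold higher (3.54 to 12.1) as a plain ratio, and Fev rested on 6 and 8 reads. Beside the pairs on chromosome 5, Tpst2 was at 4.17 and 4.198 FPKM, 2900026A02Rik at 2.81 and 2.71, and Adrbk2 at 0.935 and 0.957. Cryaa's neighbour U2af1, a splicing factor gene, was at 31.6 FPKM in Msx2 CKO and 31.4 in Msx2 WT.

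Overlapping genes and shared sequence could bear on few of the values. Cryba1 lies inside Nufip2 on the other strand, which had 1065 and 898 reads against 702714 and 1423825 for Cryba1. The pseudogene Gm43247 lies within Crybb2 on the other strand and had 979 reads in Msx2 CKO and 1402 in Msx2 WT, 2.19-fold lower (2.02 to 2.38), close to Crybb2 itself. The sources used here do not say whether counting used strand, so these reads cannot be assigned to either strand. No run of 50 bases in the annotated transcripts of the 6 beta-crystallins was shared with another gene of GENCODE M21. For Cryaa 8.37% of such runs were shared, with an antisense gene (AC090881.2), and for Cryab 13.3%, with Hspb2. Both are overlapping partners, and no member shared such a run with another member.

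Of 26 genes listed as crystallin gene regulators, largely transcription factors and cofactors, all were measured, 1 was lower by 2-fold and none was higher. Over all 10757 measured genes 2.93% were lower and 5.83% higher, so 1 of 26 is close to the share lower. The median log2 ratio was -0.12. The lower gene was Hsf4, the heat shock factor of postnatal fibres, at 56.8 FPKM in Msx2 CKO and 125 in Msx2 WT, 2.21-fold lower (2.09 to 2.33). Maf, which encodes c-Maf, the main MARE-binding factor of fibre cells, was at 54.2 and 109 FPKM, 2.01-fold lower (1.958 to 2.061) as a plain ratio, but its log2 ratio of -0.99 missed the rule. Sox1 was at 17.1 and 32.6 FPKM and Foxe3 at 63.0 and 116 FPKM. Prox1, a homeobox gene of fibre differentiation, was at 42.1 and 61.4 FPKM, Pax6 at 16.1 and 21.6, and Pitx3 at 47.3 and 51.8. Under read totals alone the log2 ratios of Hsf4, Maf and Sox1 were -0.25, -0.11 and -0.04, and those of Foxe3, Prox1, Pax6 and Pitx3 were 0.01, 0.34, 0.44 and 0.74.

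With 2 libraries, likeness of pattern reduces to a similar ratio. Among the 228 genes other than crystallins with a mean of 100 FPKM or more, those whose log2 ratio lay nearest the median of the 8 crystallins included Ndufa1, Fabp5, Hmox1 and R3hdml, all within 0.10 of it. Fabp5 encodes a fatty acid binding protein, Ndufa1 a subunit of mitochondrial complex I and Hmox1 haem oxygenase 1. Fabp5 was at 937 FPKM in Msx2 CKO and 2342 in Msx2 WT, and Ndufa1 at 189.8 and 492.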

How the data were processed

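Messenger RNA of 2 lens libraries was sequenced, 1 per genotype. STAR (version 2.5.1b), HTSeq (0.6.0) and DESeq2 (1.10.1) are named, without roles, in the submitters' processing notes. The sources used here give neither genome build nor annotation. The deposited FPKM values were recognised as FPKM from the values: multiplied by the table's gene length, 100% were whole multiples of 1 step per library (tolerance 0.001), which gave the reads. Identifiers matched GENCODE M21 (GRCm38) for 21566 of 21673 genes, and 6 of the 8 crystallin genes had identical coordinates. Coordinates are those of the table, on GRCm38 by this match.

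From these values, log2 ratios of FPKM + 1 were computed for genes with a mean of 1 FPKM or more, with 2-fold as the size rule. With 1 library per genotype no p-value was computed. Ratio intervals are exact conditional binomial (Clopper-Pearson) and those of pair ratios normal on the log scale, at 95%. Recovery and intervals were tested on simulated data (Python 3.11.15, numpy 2.4.6, scipy 1.17.1). Other scalings, pseudocounts, filters and lengths were tried. The crystallin genes, gene lists, motifs and neighbour rule (50 kb) were chosen with earlier results of these data known. Named genes were the 8 members, Msx2, listed genes past 2-fold or at 100 FPKM or more, 7 preset regulators (Pax6, Maf, Sox1, Prox1, Hsf4, Pitx3, Foxe3), neighbours, and the 5 genes nearest in ratio, of which 1 is not reported here; others, such as Xist, the Y-linked genes, Grifin and Vsx1, were added after their values were seen.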

Additional observations from a re-analysis of the deposited data

How the results depend on the processing

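Of the 8 alpha- and beta-crystallin genes, 7 were lower by 2-fold under median-of-ratios scaling, pseudocounts of 0.1 and 10, a minimum of 10 reads, and no filter, as in the main result. These settings could hardly have changed the count. The lowest level of a member was 2092 FPKM, on 114041 reads, far above the pseudocounts and filters. Median of ratios nearly repeats the deposited scaling, with library factor ratios (Msx2 CKO over Msx2 WT) of 1.545 and 1.531. Scaling to read totals alone left 0 of 8 past 2-fold with a median log2 ratio of -0.47, totals without crystallin reads left 5 with a median of -1.12, and scaling to lens fibre markers, added after the data were seen, left 0 with a median of -0.092. Cryba2 changed direction to 0.054 under read totals alone and to 0.44 under fibre markers, where Cryba4 and Crybb2 also did, at 0.050 and 0.20. Over all measured genes, the share lower by 2-fold was 2.93% on the deposited scaling and 3.02% under median of ratios. It was 1.92% under totals without crystallin reads, 0.664% under read totals alone and 0.33% under fibre markers. In either direction 942 of 10757 passed on the deposited scaling, 2307 of 10996 under read totals alone and 5412 of 11203 under fibre markers. Of the 5412, 5375 were higher. A pseudocount of 10 gave 169 in either direction, a pseudocount of 0.1 gave 1365, a minimum of 10 reads 1040 and no filter 1172. The alpha to beta ratio in Msx2 CKO was 0.944 of that in Msx2 WT, 0.941 from reads not divided by length and 0.954 without Cryab. The Cryaa share of the pool was lower in Msx2 CKO by 0.72 percentage points (-0.72), with -0.87 from reads not divided by length and -0.77 with principal transcript lengths, the latter added after the data were seen. The scalings differ by construction by one constant per library, which moves all 8 genes together. Depth limits none of the crystallin values, and the lack of replicates limits all of them. No paired analysis was possible because each genotype has 1 library and the result comes from no test.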

Other observations

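Genes with crystallin in their name that are not structural lens proteins did not follow the 8 structural genes. Crym, which encodes mu-crystallin, a thyroid hormone binding protein, was at 7.53 FPKM in Msx2 CKO (597 reads) and 0.251 in Msx2 WT (13 reads), 30.0-fold higher (17.4 to 56.7). Cryz, which encodes the quinone reductase zeta-crystallin, was at 2.87 and 3.36 FPKM, and Cryzl1 at 6.50 and 6.46 FPKM. Of 5 such genes looked for, 4 were in the deposited table and 3 were measured. Crym alone was past 2-fold, beside 2.93% lower and 5.83% higher over all measured genes. Cryl1 rested on 20 and 2 reads. Of the non-lens members of the beta-gamma superfamily, Aim1 was at 4.67 FPKM in Msx2 CKO and 0.967 in Msx2 WT, 4.83-fold higher (3.98 to 5.92), and Crybg3 at 1.06 and 2.19 FPKM, a log2 ratio of -0.63. Most of the retinal, glial and leukocyte markers given above were higher in the same library as Crym and Aim1, and their part in these values was not tested.

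Of 11 cornea and conjunctiva markers 6 were listed, summing to 343 FPKM in Msx2 CKO and 24.2 in Msx2 WT, with Krt14 at 0 in Msx2 CKO. Of the 4 measured, 2 were higher: Aldh3a1, a corneal aldehyde dehydrogenase gene, at 169 and 11.6 FPKM, and Lypd2 at 166 and 0.193 FPKM. Over all 10757 measured genes 2.93% were lower by 2-fold and 5.83% higher, and the counts in these lists rest on few genes. The 4 marker lists that follow summed to less. Skeletal muscle markers, of interest because muscle makes Cryab, summed to 2.34 and 4.12 FPKM over 5 of 8 listed, with Acta1 at 0 in Msx2 WT, against 13647 and 36990 FPKM for Cryab. The 1 measured muscle marker, Pvalb, was lower by 2-fold, on 18 reads in Msx2 CKO and 40 in Msx2 WT. Markers of pigmented tissues (pigment epithelium, iris, ciliary body) summed to 11.8 and 28.2 FPKM over 10 genes, with Myoc at 0 in Msx2 WT, and 2 of 4 measured were lower. Endothelial markers summed to 7.40 and 1.88 FPKM over 6 genes, with Emcn at 0 in Msx2 WT, and 1 of 2 measured was higher. Erythroid markers summed to 10.8 and 10.7 FPKM over 6 genes, with Hba-a2 at 0 in Msx2 WT, and none of the 1 measured passed.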
